A study of Mus musculus with 4 samples.

Results

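The AI barcode is the 15-base tag of the retrograde virus that was injected into the agranular insular cortex (AI), 1 of the 5 barcoded viruses of a MERGE-seq experiment on the mouse ventromedial prefrontal cortex (vmPFC). Its UMI counts are described here for all 20047 cells with a cell type in the authors' annotation, of 24788 cells in the barcode tables. They comprised 8805 excitatory neurons, of which 8210 had a subtype, 1420 inhibitory neurons and 9822 non-neuronal cells. An excitatory neuron with a subtype and more than 28 AI UMIs is called an AI neuron below, as in the deposited labels, and there were 805 of them. Male C57BL/6 mice of 8 weeks had been injected on one side with rAAV2-retro viruses for AI, the dorsomedial striatum (DMS), the mediodorsal thalamus (MD), the basolateral amygdala (BLA) and the lateral hypothalamus (LH), and the prelimbic and infralimbic cortex was dissected. The virus for AI was placed at an anterior and a posterior site. Unsorted mice 1, 2 and 3 each gave 1 library without selection, with 6614, 5966 and 5775 annotated cells. FAC-sorting of 3 other mice gave a pool of EGFP-positive cells, called the sorted pool below, with 1692 annotated cells in 1 library, so it mixes animals and has no replicate. The cells of all 4 libraries came from mice with all 5 viruses, and no mouse without virus was analysed here.

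In this method, rAAV2-retro is taken up by axon terminals and carried to the cell body, so a neuron that sends an axon to the injected area can express the barcode of that area. The barcode lies behind EGFP under a short CAG promoter, which is active in many cell types, and it is read from the 3' end of the EGFP transcript. The agranular insula is a cortical area that handles taste, visceral and other internal signals, and axons from one cortical area to another come mainly from intratelencephalic neurons, which stay within the cortex and striatum and can reach both sides of the brain. Corticothalamic neurons of layer 6 and pyramidal tract neurons of layer 5, by contrast, are known for axons to the thalamus, hypothalamus and brainstem. The subtype names combine a layer with a leading gene. Gene expression was not analysed here, so the annotated cell types could not be checked against markers.

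The designed sequences are shown so that the distance of the AI barcode from the others can be seen. Capitals mark each base that differs from the AI barcode at the same position, counted from 1 at the 5′ end.
AI: ctgcaccgacgcatt
DMS: GAAGGcACaGAcTtt
MD: GtTGGcTgCAATCCA
BLA: AAgACGcCGTCGCAA
LH: TATTCGGAGGAcGAC
The DMS barcode differed from the AI barcode at 10 positions, MD at 12, BLA at 13 and LH at 14. Because a read was accepted with up to 2 mismatches, no read could match AI and another barcode at once. The most frequent misread forms of the AI barcode are shown because they show how much of the AI count rests on the mismatch rule, with the changed base in capitals.
A13C: ctgcaccgacgcCtt
T14G: ctgcaccgacgcaGt
C7A: ctgcacAgacgcatt
They were read 17386, 12329 and 7062 times over the 4 libraries, or 0.259%, 0.184% and 0.105% of all AI reads. All 45 possible forms with 1 mismatch occurred, and positions 13 and 14 held 17.2% and 14.7% of the reads with 1 mismatch. Reads with 1 mismatch were 2.35%, 1.03% and 1.42% of the AI reads of mice 1, 2 and 3 and 2.17% of those of the sorted pool. Nearly all AI reads therefore carried the designed sequence.

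The projectome libraries, in which the barcode region is amplified by PCR from the cDNA, held 20443286, 30613665 and 32895529 reads for mice 1 to 3 and 30272582 for the sorted pool. AI took 7.21%, 7.08% and 7.30% of the matched reads in mice 1 to 3 and 4.55% in the sorted pool. A UMI, a random tag that marks 1 cDNA molecule, was counted once for each cell and barcode. The AI counts recomputed from the reads were equal to the deposited AI counts in every one of the 24788 cells. A count of 1 UMI is kept for AI in the deposited tables, in 1629, 1569, 1562 and 112 cells of the 4 libraries in the same order, whereas no cell is listed with 1 UMI of any other barcode. Low counts of AI and of the other barcodes are therefore not on the same footing. The libraries differed in depth, with 2542 reads per cell in mouse 1, 4115 and 4544 in mice 2 and 3 and 14639 in the sorted pool. Mouse 1 stood apart in AI as well, and values are given for each mouse for this reason. Between libraries, 52 cell barcodes were found more than once. They belonged to 105 cells, of which 1 was an AI neuron.

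Excitatory neurons had more AI UMIs than every other annotated cell type in mice 1 to 3. Their mean was 7.90, 10.7 and 11.1 AI UMIs per cell in mice 1, 2 and 3 and 20.3 in the sorted pool. Non-neuronal cells had a mean of 0.518, 0.810 and 0.734 AI UMIs in mice 1 to 3 and 2.78 in the 73 such cells of the sorted pool. The mean of excitatory neurons was thus 15.2, 13.2, 15.2 and 7.29 times that of non-neuronal cells, a log2 ratio of 3.61 ± 0.51 (SD, n = 4 libraries). The direction was the same in 4 of 4 libraries, and an exact two-sided sign-flip test gave p = 0.13, the smallest p that 4 libraries allow. Part of this gap went with the depth of the cells, since the median was 22607 transcriptome UMIs per excitatory neuron and 4114 per non-neuronal cell. Per 10000 transcriptome UMIs the ratio was 3.34, 2.95 and 3.20 in mice 1 to 3 and 2.51 in the sorted pool, with the same p in an exact sign-flip test.

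The 6 non-neuronal types had nearly the same low level of AI. Per 10000 transcriptome UMIs, mice 1 to 3 had 1.81 ± 0.497 AI UMIs (SD, n = 3) in astrocytes, 1.61 ± 0.417 in oligodendrocyte progenitor cells (OPC) and 1.60 ± 0.331 in microglia. Endothelial cells had 1.37 ± 0.151, oligodendrocytes 1.36 ± 0.423 and activated microglia 1.33 ± 0.299. These means lay within the spread between mice. At least 1 AI UMI was found in 36.2% ± 6.54 of endothelial cells and in 46.4% ± 6.23 of activated microglia, the lowest and highest shares of the 6 types. An AI UMI in a cell was therefore not read as a projection, because cells that send no axon to the insula held it as well.

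Inhibitory neurons, most of which have local axons, lay at this background in mice 1 to 3 once depth was taken into account. They had 2.28, 1.98 and 2.72 AI UMIs per cell in mice 1 to 3 at a median of 13183.5 transcriptome UMIs over all libraries. That was 1.63 ± 0.19 per 10000 transcriptome UMIs (SD, n = 3), against 1.49 ± 0.291 in all non-neuronal cells and 4.64 ± 0.668 in excitatory neurons. The 8 inhibitory neurons of the sorted pool did not lie there, with a mean of 38.6 AI UMIs per cell and 18.9 per 10000 transcriptome UMIs, above the 6.77 of its excitatory neurons and the 2.82 of its non-neuronal cells. A few inhibitory neurons nevertheless held many AI UMIs. Above 28 UMIs were 7 of 499 in mouse 1, 0 of 496 in mouse 2, which allows a share of up to 0.605%, and 7 of 417 in mouse 3. With the sorted pool, where 2 of 8 passed, these were 16 of 1420 inhibitory neurons, or 1.13% (95% interval, 0.645% to 1.82%). Their counts reached 120 in mice 1 to 3 and 154 in the sorted pool.

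Of the 9822 non-neuronal cells, 4 had more than 28 AI UMIs, or 0.0407% (95% interval, 0.0111% to 0.104%). They were an endothelial cell with 126, an OPC with 33 and a pair of oligodendrocytes with 29 and 69 AI UMIs. The 29 UMIs of the first of these oligodendrocytes came with 126 MD UMIs and 41120 transcriptome UMIs, far above the oligodendrocyte median of 4768. No astrocyte of 495, which allows a share of up to 0.606%, no microglial cell of 2951, which allows up to 0.102%, and no activated microglial cell of 85, which allows up to 3.53%, passed. Among non-neuronal cells the 99.9th percentile differed between libraries, with 19, 23 and 27 AI UMIs in mice 1, 2 and 3. In the sorted pool it was 24, the highest of 73 cells. All of these values lie below the threshold of 28.

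Among excitatory neurons, 3 subtypes had the highest mean number of AI UMIs per cell. L5-S100b neurons had a mean of 19.5, 24.0 and 26.6 AI UMIs in mice 1, 2 and 3 and 30.3 in the sorted pool. L2/3-Rorb neurons had 17.8, 25.5 and 26.7 in mice 1 to 3 and 33.2 in the sorted pool. L6-Npy neurons had 13.7, 22.5 and 20.6, and 22.3. In L6-Syt6, the largest subtype with 4819 neurons, the mean was 4.72, 6.71 and 7.19 in mice 1 to 3 and 16.5 in the sorted pool. The means of the first 3 subtypes lay above that of L6-Syt6 in every library. In total, however, L6-Syt6 held the most AI UMIs of any subtype, 37350 of 99844 over all libraries. L5-Bcl6 neurons had 10.2 ± 2.19 (SD, n = 3) in mice 1 to 3, L2/3-Calb1 neurons 5.82 ± 1.12 and L5-Htr2c neurons 2.54 ± 0.929.

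The same order held per 10000 transcriptome UMIs, apart from the places of L2/3-Rorb and L5-S100b and of L6-Syt6 and L2/3-Calb1. In mice 1 to 3 L2/3-Rorb had 10.8 ± 1.92 AI UMIs on this scale (SD, n = 3), L5-S100b 10.2 ± 0.572 and L6-Npy 9.36 ± 2.15. L5-Bcl6 followed with 4.43 ± 0.519, L2/3-Calb1 with 3.07 ± 0.395, L6-Syt6 with 2.70 ± 0.510 and L5-Htr2c with 1.70 ± 0.578. L5-Htr2c, at a median of 14553 transcriptome UMIs, was thus within the spread of the non-neuronal cells in the mice, whereas the other 6 subtypes exceeded the non-neuronal level in every mouse. The leading 3 differed from each other by less than the spread between mice. In the sorted pool L6-Syt6 reached 4.79, the 4 L5-Htr2c neurons 4.88 and non-neuronal cells 2.82 per 10000 transcriptome UMIs.

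The threshold of 28 UMIs fell on a smooth slope of the counts. Over all libraries, 302 neurons had 24 to 28 AI UMIs and 214 had 29 to 33. Exactly 28 UMIs were found in 52 neurons, just outside, and exactly 29 in another 52, just inside. The count of AI neurons therefore moved strongly with the threshold, from 2035 above 14 UMIs to 246 above 56. More than 100 AI UMIs were found in 24, 25 and 26 neurons of mice 1, 2 and 3 and in 31 of the sorted pool, which was 0.984%, 1.16% and 1.23% of the subtyped neurons of the mice and 2.06% of those of the sorted pool.

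AI neurons numbered 117 of 2440, 162 of 2146 and 217 of 2119 neurons in mice 1, 2 and 3 and 309 of 1505 in the sorted pool. Their share was 4.80%, 7.55% and 10.2% in mice 1 to 3, or 7.53% ± 2.72 (SD, n = 3), and 20.5% in the sorted pool (95% interval, 18.5% to 22.7%). All 3 mice lay below the sorted pool. In the deposited counts the interval of mouse 1 (3.98% to 5.72%), which covers counting error only, did not reach those of mice 2 (6.47% to 8.75%) and 3 (8.98% to 11.6%). In the recounts described below, mice 1 to 3 had 3.57%, 3.45% and 3.49% with shared UMIs reassigned and 4.80%, 3.73% and 4.81% with thinned reads. The sorted pool stood 13.0 percentage points above the mean of the mice, a difference that ranged from 1.63 points with UMIs of at least 2 reads to 44.0 with the threshold at the 99th percentile of non-neuronal cells, apart from thinned reads. An exact one-sided permutation test of 1 library against 3 gave p = 0.25, the smallest p of this design. With the reads thinned to a mean of 2542 per cell in every library, the share of the sorted pool fell below that of the mice, 3.32% against 4.45% ± 0.622. That mean is over all cells of the barcode tables. Excitatory neurons were 1611 of 1692 annotated cells in the sorted pool and 2612 of 6614, 2283 of 5966 and 2299 of 5775 in the mice. The thinning therefore did not equalise the reads per neuron. Cells with the most barcode UMIs of each library had also been removed from the annotation. Among them, 341, 367 and 362 cells of mice 1 to 3 and 104 of the sorted pool were above the AI threshold. The types of these cells are not known here. The parts of sorting, read depth and this removal in the excess cannot be told apart in these libraries. That of the removal was not tested.

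The subtypes fell into a group with many AI neurons and a group with few. Of L5-S100b neurons, 17.7%, 24.6% and 34.6% were AI neurons in mice 1, 2 and 3 and 37.4% in the sorted pool. L2/3-Rorb followed with 13.6%, 23.4% and 30.2%, and 29.4% in the sorted pool. L6-Npy had 12.1%, 21.3% and 20.8%, and 19.9%. In these 3 subtypes mouse 1 was the lowest library in the deposited counts. This did not hold for L5-S100b in the recounts described below, where mouse 1 had 11.2% with UMIs of at least 2 reads, the highest of the 4 libraries, and lay above mouse 2 with shared UMIs reassigned, 13.9% against 11.5%, and with thinned reads, 17.7% against 14.7%. The shares were small in L6-Syt6, with 0.771%, 2.51% and 4.00% in mice 1 to 3, but reached 14.3% in the sorted pool. L5-Bcl6 had 1.11%, 5.00% and 8.33%, and 13.3%, from 1 to 8 neurons in a library. L2/3-Calb1 had 1.94%, 2.04% and 4.21%, and 10.5%, from 2 to 4 neurons in a library. No AI neuron was found among 320 L5-Htr2c neurons, which allows a share of up to 0.938%. The 595 excitatory neurons without a subtype, at a median of 4780 transcriptome UMIs, are not counted as AI neurons, and 3 of 172, 5 of 137 and 8 of 180 of them in mice 1 to 3 and 3 of 106 in the sorted pool had more than 28 AI UMIs.

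Within libraries, L5-S100b exceeded L6-Syt6 by 16.9, 22.1 and 30.6 percentage points in mice 1 to 3 and by 23.1 in the sorted pool, on average 23.2 ± 5.62 (SD, n = 4 libraries). The mean difference was 9.55 points with UMIs of at least 2 reads and 10.7 above 56 AI UMIs. The difference had the same sign in 4 of 4 libraries, and the exact two-sided sign-flip test gave p = 0.13. Of all 21 pairs of subtypes, 18 had the same direction in the 4 libraries, each with the smallest possible p of 0.13 in the exact sign-flip test and 0.15 after Benjamini-Hochberg adjustment over the 21 pairs. No pair can pass 0.05 with 4 libraries. The other 3 pairs were those among L2/3-Calb1, L5-Bcl6 and L6-Syt6. L2/3-Calb1 was on average 0.73 percentage points below L6-Syt6 with an SD of 2.17 and 2.26 below L5-Bcl6 with an SD of 2.15, and L5-Bcl6 was 1.54 above L6-Syt6 with an SD of 2.36. Neighbours in the upper group had the same order in every library in the deposited counts, with L2/3-Rorb below L5-S100b by 1.24 to 8.05 points and above L6-Npy by 1.50 to 9.50 points. This order did not hold in all recounts. With shared UMIs reassigned, L2/3-Rorb lay above L5-S100b in mouse 2, 16.8% against 11.5%, and in mouse 3, 15.1% against 14.1%, and below L6-Npy in the sorted pool, 11.01% against 12.6%. With UMIs of at least 2 reads it lay above L5-S100b in mouse 2, in mouse 3 and in the sorted pool, and with thinned reads in mouse 2 and in the sorted pool.

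The excess of the sorted pool was not spread evenly over the subtypes. It was 11.9 percentage points in L6-Syt6, from a mean of 2.43% ± 1.62 (SD, n = 3) in the mice, which is a 5.91-fold share. In L5-S100b it was 11.8 points from 25.6% ± 8.48, a 1.46-fold share, and in L6-Npy it was 1.78 points from 18.1% ± 5.20. The share of the sorted pool lay within the range of the mice for L6-Npy and L2/3-Rorb and above every mouse for L5-S100b, L6-Syt6, L5-Bcl6 and L2/3-Calb1. With the reads thinned, the share of the sorted pool was 0.677% in L6-Syt6, against 0.537% ± 0.340 in the mice (SD, n = 3), and lay below every mouse in the 3 leading subtypes. It was then 7.19% against 17.8% ± 3.14 in L5-S100b, 5.42% against 12.9% ± 1.16 in L6-Npy and 8.26% against 14.5% ± 0.837 in L2/3-Rorb. The thinning equalised the reads per table cell and not per neuron. Differences between these excesses were not tested, since there is 1 sorted library.

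The strength of an AI neuron, its number of AI UMIs, had a median of 54, 37 and 40 in mice 1, 2 and 3 and 42 in the sorted pool. Over all AI neurons the lower quartile was 33, the upper quartile 66 and the maximum 362, which was found in an L2/3-Rorb neuron. Of the subtypes with enough AI neurons to compare, L6-Syt6 had the lowest strength in every library. The median was 66, 42 and 45.5 in the L5-S100b neurons of mice 1 to 3 and 46 in those of the sorted pool. In L2/3-Rorb it was 78, 48, 42.5 and 49, and in L6-Npy it was 42.5, 54, 47 and 48, in the same order of libraries. L6-Syt6 neurons had 34, 31.5, 34 and 37, close to the threshold in each library.

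The L5-S100b median was above that of L6-Syt6 by a log2 ratio of 0.96, 0.42 and 0.42 in mice 1 to 3 and 0.31 in the sorted pool. The mean was 0.53 ± 0.29 (SD, n = 4 libraries), with p = 0.13 in the exact two-sided sign-flip test. Of the 6 pairs among the 4 subtypes with at least 3 AI neurons in every library, the 3 pairs with L6-Syt6 had the same sign in all libraries, each with an adjusted p of 0.25 over the 6 pairs by the exact test. Among L5-S100b, L2/3-Rorb and L6-Npy no order held in all 4 libraries. L2/3-Rorb exceeded L6-Npy by 0.15 ± 0.49 and L5-S100b by 0.11 ± 0.15 on the log2 scale. The strongest L6-Syt6 neurons had 112, 42 and 168 UMIs in mice 1 to 3 and 179 in the sorted pool. The strongest L6-Npy neurons had 218, 239 and 173, and 266. These are single maxima, of 11, 34, 52 and 106 L6-Syt6 and 32, 51, 52 and 55 L6-Npy AI neurons. They were nearly equal in mouse 3, and their difference was not tested.

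How often AI was the most abundant barcode of an AI neuron differed between libraries. It was the highest of the 5 in 56 of 117, 42 of 162 and 33 of 217 AI neurons of mice 1 to 3 and in 17 of 309 of the sorted pool. The median AI share of the barcode UMIs in an AI neuron was 34.4%, 12.4% and 10.7% in mice 1 to 3 and 6.88% in the sorted pool. In L6-Syt6 it was 36.6% in mouse 1, from 11 neurons, and 7.97%, 8.42% and 6.08% in the other libraries.

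AI counts rose and fell with the other barcodes across neurons. Over the neurons with a subtype in a library, Spearman's rho of AI with DMS was 0.780, 0.808, 0.812 and 0.753 in mice 1, 2 and 3 and the sorted pool. With LH it was 0.740, 0.768, 0.800 and 0.711, and with transcriptome UMIs 0.264, 0.293, 0.263 and 0.375. These are descriptions across the cells of a library, which share its depth, and they include low counts, where a single UMI is kept for AI alone. The same UMI can also count for 2 barcodes, as it did for AI and DMS in 56.2% to 65.2% of the AI UMIs of all table cells. The correlations include such UMIs.

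The barcode that most often accompanied AI above its own threshold was DMS. DMS was valid, that is, above 101 UMIs, in 35.9%, 54.3% and 65.0% of the AI neurons of mice 1 to 3 and in 82.2% of those of the sorted pool. Among the other subtyped neurons DMS was valid in 6.54%, 6.45% and 6.15%, and in 26.8%. MD, valid above 114 UMIs, accompanied AI in 0.855%, 16.05% and 20.3% of AI neurons of mice 1 to 3 and in 44.0% of those of the sorted pool. Mouse 1 thus held a single AI neuron with MD. Among the other subtyped neurons MD was valid in 3.06%, 4.44% and 2.58%, and in 12.2%, so in mouse 1 it was less frequent in AI neurons than in the others. BLA, valid above 35 UMIs, was found in 1.71%, 3.09% and 8.29% of the AI neurons of mice 1 to 3 and in 16.8% of those of the sorted pool, against 0.861%, 1.01% and 0.9989%, and 2.26%, of the other neurons. LH, valid above 103 UMIs, was found in 1.71%, 9.26% and 7.83% of AI neurons and in 21.7%, against 2.76%, 2.17% and 2.10%, and 7.19%, of the other neurons. LH was thus more frequent in AI neurons of every library except mouse 1. In mouse 1 its share rests on 1 neuron with AI and LH and 1 with AI, DMS and LH. The lower LH share there is therefore not read as a difference. The differences between AI neurons and other neurons were not tested. Neurons with several valid barcodes are the most exposed to the removal of cells with the most barcode UMIs. This removal left out 341, 367 and 362 cells above the AI threshold in mice 1 to 3, while 117, 162 and 217 AI neurons were kept. The number left out was thus similar in the mice. L6-Syt6 neurons were 11, 34 and 52 of these AI neurons. In the AI neurons, AI had fewer reads than another barcode in 10.3%, 27.6% and 40.1% of its UMIs. The parts of the removal, the subtypes and these UMIs in the low MD and LH shares of mouse 1 were not tested.

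The 805 AI neurons formed 13 sets of valid barcodes. Over all libraries AI with DMS was the most frequent with 306 neurons, or 40.9% ± 6.25 (SD, n = 3) of the AI neurons of mice 1 to 3 and 31.4% of those of the sorted pool. AI as the only valid barcode followed with 219 neurons, AI with DMS and MD with 96, AI with DMS, MD and LH with 35, and AI with MD with 28. This order did not hold in each library. In mouse 1, 72 AI neurons had AI alone and 40 had AI and DMS. In the sorted pool AI with DMS and MD, with 64 neurons, came before AI alone, with 48. AI with DMS, MD and LH was found in 0, 1 and 4 neurons of mice 1 to 3 and in 30 of the sorted pool, whereas AI with MD was found in 1, 8 and 16, and in 3. AI alone was also the most frequent set, with 223 of 344 neurons, in the recount described at the end, in which UMIs shared between barcodes are reassigned. That recount lowers the other barcodes too, at unchanged thresholds. The other 8 sets held between 2 and 27 neurons. All 5 barcodes were valid in 20 neurons, all of them in the sorted pool, and none of the 496 AI neurons of mice 1 to 3 had such a set. Neurons with many valid barcodes are the most exposed to the removal of cells with the most barcode UMIs. It left out 403, 372 and 362 cells of mice 1 to 3 and 104 of the sorted pool. The absence in the mice is therefore not read as a difference from the sorted pool. The part of the removal was not tested.

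MD as a companion of AI differed between subtypes in 3 of the 4 libraries. In L6-Syt6 it was valid in 1 of 11, 23 of 34 and 42 of 52 AI neurons of mice 1, 2 and 3 and in 85 of 106 of the sorted pool. Layer 6 neurons of the corticothalamic kind are known to project to thalamic nuclei such as MD. In L6-Npy it was valid in 0 of 32, 1 of 51 and 0 of 52, and in 8 of 55 of the sorted pool. L5-S100b had MD in 0 of 52, 0 of 47 and 1 of 66, and in 26 of 104, and L2/3-Rorb in none of the 82 AI neurons of the mice and in 10 of 32 of the sorted pool. In mouse 1 the L6-Syt6 share, 1 of 11, was also lower than in the other libraries. In those libraries the share was highest in L6-Syt6 of these 4 subtypes. Neither difference was tested, nor was the part of the removal of cells with the most barcode UMIs. Of the 189 L6-Syt6 AI neurons with other valid barcodes, 4 stayed above 28 AI UMIs in the recount described at the end. LH was valid in L6-Syt6 AI neurons as well, in 1 of 11, 12 of 34 and 13 of 52, and in 54 of 106 of the sorted pool.

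DMS accompanied AI in all 4 of these subtypes. It was valid in 18.2%, 47.1% and 50.0% of the L6-Syt6 AI neurons of mice 1 to 3 and in 91.5% of those of the sorted pool. In L6-Npy it was 25.0%, 49.0%, 69.2% and 65.5%, in L5-S100b 44.2%, 66.0%, 69.7% and 80.8%, and in L2/3-Rorb 42.1%, 48.0%, 68.4% and 87.5%, in the same order of libraries. L6-Syt6 was thus the lowest of the 4 in each mouse and the highest in the sorted pool. At least 3 barcodes were valid in 0 of 11, 17 of 34 and 27 of 52 L6-Syt6 AI neurons of the mice and in 94 of 106 of the sorted pool. Of the 17 L5-Bcl6 AI neurons, 11 had LH and 15 had DMS, and none had AI alone.

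AI-only neurons, those with AI as the only valid barcode, numbered 72, 53 and 46 in mice 1, 2 and 3 and 48 in the sorted pool. They were 61.5%, 32.7% and 21.2% of the AI neurons of the mice, or 38.5% ± 20.8 (SD, n = 3), and 15.5% of those of the sorted pool (95% interval, 11.7% to 20.1%). The mean share of the mice moved with the counting rule. It was 90.7% with UMIs of at least 2 reads and 73.4% with shared UMIs reassigned. Above 56 AI UMIs it was 60.2%, and 14.7% with the other thresholds at 0.5 times their value. The recounts kept the deposited thresholds of all barcodes. Counting fewer UMIs therefore also takes other barcodes below their thresholds by construction, and the higher shares are not read as more AI-only neurons. The number differed less between libraries than the share, while AI neurons with other valid barcodes numbered 45, 109 and 171 in the mice and 261 in the sorted pool. In the deposited counts the interval of the share, which covers counting error only, was 52.1% to 70.4% in mouse 1 and 15.96% to 27.2% in mouse 3. The SD between the mice was 4.63 points with shared UMIs reassigned, 8.09 with thinned reads and 23.6 with exact matches only. Neurons with several valid barcodes are the most exposed to the removal of cells with the most barcode UMIs, and its part in these shares was not tested.

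By subtype, AI-only neurons were mostly L6-Npy and L5-S100b. Of all 219, 84 were L6-Npy, 80 L5-S100b, 37 L2/3-Rorb, 14 L6-Syt6 and 4 L2/3-Calb1. L5-S100b came before L6-Npy in mouse 1, 29 against 24, in mouse 3, 17 against 15, and in the sorted pool, 20 against 19. In mouse 2 L5-S100b had 14 against 26. L6-Npy made up 33.3%, 49.1% and 32.6% of AI-only neurons in mice 1 to 3 and 39.6% in the sorted pool. Of all AI neurons it made up 27.4%, 31.5%, 24.0% and 17.8%. L6-Syt6 made up 9.72%, 1.89%, 4.35% and 8.33% of AI-only neurons. Within subtypes, AI was the only valid barcode in 75.0%, 51.0%, 28.8% and 34.5% of the L6-Npy AI neurons of the 4 libraries, above the share in L5-S100b of 55.8%, 29.8%, 25.8% and 19.2%. The difference had the same sign in 4 of 4 libraries, 14.7 ± 8.12 percentage points (SD, n = 4 libraries), with p = 0.13 and an adjusted p of 0.38 over 6 pairs in the exact sign-flip test. L6-Syt6 had 63.6% in mouse 1, from 7 of 11 neurons, and 2.94%, 3.85% and 3.77% elsewhere. It lay below L6-Npy in 4 of 4 libraries, by 28.8 ± 15.2 percentage points, with the same p and adjusted p in the exact test.

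In mice 1 to 3, AI-only neurons held more AI UMIs than AI neurons with other valid barcodes. Their median was 62, 71 and 68.5 UMIs, against 43, 35 and 37. In the sorted pool the medians were 40.5 and 42. The log2 ratio was 0.53, 1.02 and 0.89 in the mice and -0.05 in the sorted pool, on average 0.60 ± 0.48 (SD, n = 4 libraries), with p = 0.25 in the exact two-sided sign-flip test. The difference was near 0 when shared UMIs were reassigned, 0.0041 ± 0.182 (SD, n = 4 libraries) with p = 0.75 in the exact test, and above 14 AI UMIs, 0.0081 ± 0.559 with p = 1.0 in the exact test. It was negative above 56 UMIs, with -0.14, and with the threshold at the 99th percentile of non-neuronal cells, with -1.19 ± 0.211 and p = 0.13 in the exact test. The median depth of the cells was 22426.5, 22675 and 24329 transcriptome UMIs in the AI-only neurons of mice 1 to 3, against 22861, 24127 and 24490 in the other AI neurons, and 30231 against 36343 in the sorted pool.

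AI-only neurons were not free of the other barcodes. Their median DMS count, below the threshold by definition, was 52, 59 and 66 UMIs in mice 1 to 3 and 77.5 in the sorted pool. Neurons with no valid barcode at all had 16, 25, 24 and 62. DMS exceeded AI itself in 20 of 72, 16 of 53, 18 of 46 and 39 of 48 AI-only neurons, so most AI-only neurons of the sorted pool held more DMS than AI. Another barcode lay above 0.5 times its threshold in 154 of the 219, nearly always DMS, with 149.

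Most AI molecules rested on few reads. Of the AI UMIs of all table cells, 64.9%, 61.8% and 59.4% in mice 1 to 3 and 59.0% in the sorted pool rested on a single read, although the mean was 21.1 to 26.0 reads. The UMI of an AI molecule was read with a further barcode in the same cell in 59.9%, 63.1%, 66.9% and 59.1%, and with DMS in 56.2%, 61.0%, 65.2% and 56.6%. In 77.2% to 85.0% of these shared UMIs AI had fewer reads than the other barcode. The median number of AI reads of a shared UMI was 1 in mice 1 to 3 and 2 in the sorted pool, and that of an unshared AI UMI was 1 in all 4 libraries. In the shared UMIs the strongest other barcode had a median of 98, 171, 181 and 311 reads. Such UMIs count for AI in the deposited tables. Their part in the results above was not tested apart from the recounts that follow.

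The AI subtypes differed in these molecules. In AI neurons of L6-Syt6, AI had fewer reads than another barcode in 18.1%, 86.2% and 76.0% of its UMIs in mice 1, 2 and 3 and in 69.8% in the sorted pool. In L6-Npy it was 11.6%, 15.02%, 29.1% and 20.99%, in L2/3-Rorb 8.99%, 14.02%, 26.8% and 28.3%, and in L5-S100b 9.08%, 27.4%, 35.4% and 34.2%. In AI-only neurons it was 3.14%, 2.86%, 3.46% and 2.99%. L6-Syt6 thus lay above these 3 in each library, with mouse 1 nearest to them. AI-only neurons had few such UMIs in every library, which follows in part from their definition by low counts of the other barcodes. High values were not particular to L6-Syt6, since the few AI neurons of L5-Bcl6 had 50.0%, 84.5%, 86.5% and 47.7% and those of L2/3-Calb1 had 3.13%, 85.9%, 73.1% and 53.4%. In the other subtyped neurons, those not called AI, it was 62.1%, 56.7% and 59.1% in mice 1 to 3 and 51.5% in the sorted pool. In non-neuronal cells it was 10.8% over all libraries.

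When each shared UMI was assigned to whichever barcode had the most reads in it and ties were dropped, 344 of the 805 AI neurons stayed above 28 AI UMIs. They were 87, 74 and 74 in mice 1 to 3, or 3.50% ± 0.0593 of the subtyped neurons (SD, n = 3), and 109, or 7.24%, in the sorted pool. Over all subtyped neurons the spread between the mice was thus much smaller than in the deposited counts. Within L5-S100b, L2/3-Rorb and L6-Npy the mice still differed more, with SDs of 1.46, 3.15 and 2.97 points. L6-Syt6 kept 16 of 203 AI neurons, L5-Bcl6 2 of 17 and L2/3-Calb1 4 of 12. By contrast L6-Npy kept 116 of 190, L2/3-Rorb 64 of 114 and L5-S100b 142 of 269. Of the AI-only neurons 193 of 219 stayed, against 151 of 586 AI neurons with other valid barcodes. This contrast follows in part from the definition of the groups, since AI-only neurons were chosen for low counts of the other barcodes.

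Under this recount AI neurons were 13.2% ± 1.46 of L5-S100b (SD, n = 3), 14.2% ± 3.15 of L2/3-Rorb, 10.8% ± 2.97 of L6-Npy and 0.217% ± 0.211 of L6-Syt6 in mice 1 to 3. In the sorted pool the shares were 18.7%, 11.01%, 12.6% and 0.947%. The excess of L5-S100b over L6-Syt6 remained in all 4 libraries, on average 14.2 ± 2.61 percentage points, with p = 0.13 in the exact sign-flip test. L6-Syt6 made up 4.65% of AI neurons in place of 25.2%, and L6-Npy 33.7% in place of 23.6%. Counting UMIs with at least 2 reads left 218 AI neurons, of which 43.1% were L5-S100b, 31.2% L6-Npy, 20.6% L2/3-Rorb and 4.13% L6-Syt6. The thresholds were those of the deposited counts in both recounts. Counting fewer UMIs lowers the shares of AI neurons by construction. It also takes other barcodes below their thresholds, which bears on the AI-only share.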

How the data were processed

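The members and lists were chosen with earlier results of these data known. Deposited barcode tables give the count of UMIs per cell and barcode, made by the authors from projectome reads with deMULTIplex, up to 2 mismatches allowed and no normalization. Transcriptome UMI counts, cell types, subtypes and valid labels were deposited by the authors, who used Cell Ranger and mm10 according to the submitters' processing notes. Thresholds were read from the valid labels (28 AI, 101 DMS, 114 MD, 35 BLA, 103 LH). In the study they came from non-neuronal and EGFP-negative cells, and cells with total barcode UMIs past the 95th percentile were removed without a doublet caller. Another 34 columns of the whole-series tables were not used. Reads were matched again by Hamming distance and UMIs recounted. The 3 unsorted mice gave mean and SD. Cells were not replicates. Within-library differences used exact two-sided sign-flip tests, and the FAC-sorted library an exact one-sided permutation test. Intervals are Clopper-Pearson at 95%, a 0 allows 3 counts, and both cover counting error only. Pairs of subtypes were compared for strength where both had at least 3 AI neurons per library in the deposited counts, and alternatives where they had at least 1. Named items were all 5 barcodes, 8 cell types, 7 subtypes, 4 libraries, the 5 sets of valid barcodes with most AI neurons and the 3 most frequent misreads. Alternatives were other thresholds, exact matches, UMIs of at least 2 reads, shared UMIs given to the barcode with most reads, thinned reads, transcriptome scaling and libraries left out. Counting was tested on simulated data. Python 3.11.15, numpy 2.4.6, pandas 2.3.3 and scipy 1.17.1 were used. Gene expression and EGFP counts were not analysed here.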

Additional observations from a re-analysis of the deposited data

Results flagged for a closer look

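The order of L5-Bcl6 and L6-Syt6 differed between the unsorted mice and the FAC-sorted library. The share of AI neurons in L5-Bcl6 exceeded that in L6-Syt6 by 0.34, 2.49 and 4.33 points in the 3 mice, and the difference was -1.01 percentage points in the FAC-sorted library. It rests on 1, 3, 5 and 8 L5-Bcl6 AI neurons, and the difference between the groups was not tested. The order did not hold in the recounts. With shared UMIs reassigned, L5-Bcl6 had 0% in each mouse, against 0.421%, 0% and 0.231% in L6-Syt6, and 3.33% against 0.947% in the FAC-sorted library. There L5-Bcl6 also lay above L6-Syt6 with UMIs of at least 2 reads, 1.67% against 0.812%, and with thinned reads, 1.67% against 0.677%.

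Cells that the authors' annotation leaves out held a large part of the AI UMIs. Of these 4741 cells, 1203, or 25.4%, had more than 28 AI UMIs, compared with 844 of all 20047 annotated cells, or 4.21%, and 4 of 9822 non-neuronal cells. They were 342 of 1428, 375 of 1473 and 373 of 1464 in the unsorted mice and 113 of 376 in the FAC-sorted library. Together the 4741 cells held 160336 of the 274103 AI UMIs, or 58.5%. By library this was 62.9%, 62.9% and 66.5% in unsorted mice 1 to 3 and 31.5% in the FAC-sorted library. Nearly all of the 1203 cells, 1174, were among 1241 cells past the 95th percentile of total barcode UMIs in their library. That total includes AI, so the high share follows in part from how these cells were left out. Of the other 3500 cells left out, 29, or 0.829%, had more than 28 AI UMIs. The paper removed cells with unusually high barcode UMIs because they might be doublets or products of biased PCR. It also removed cells outside its limits for genes, RNA counts and mitochondrial share. The AI UMIs of cells left out are therefore not read as projections. The cell types of the 4741 cells are not known here.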

How the results depend on the processing

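The direction was kept in all 13 alternatives for the excess of L5-S100b over L6-Syt6 in the share of AI neurons, in all 11 for their strength and in all 9 for AI UMIs of excitatory over non-neuronal cells, and no test could pass 0.05. The share of AI neurons in the unsorted mice was 19.7% above 14 UMIs and 2.53% above 56. It was 10.7% with the 99.9th percentile of non-neuronal cells, 10.5% with that percentile per library and 40.2% with the 99th percentile. Recounts gave 2.36% with UMIs of at least 2 reads, 3.50% with shared UMIs reassigned by read number and 4.45% with thinned reads. The FAC-sorted excess was -1.12 percentage points with thinned reads, 1.63 with UMIs of at least 2 reads, 2.58 above 56 UMIs, 3.74 with shared UMIs reassigned, 28.8 above 14 UMIs and 44.0 with the 99th percentile. The excess of L5-S100b over L6-Syt6 ranged from 9.55 to 30.4 points. The AI-only share was 60.2% above 56 UMIs and 14.7% with the other thresholds at 0.5 times their value. Recounts gave 90.7% with UMIs of at least 2 reads and 73.4% with shared UMIs reassigned. They kept the deposited thresholds, so other barcodes also fall below theirs by construction. The log2 strength of AI-only neurons over other AI neurons was -0.14 above 56 UMIs and -1.19 with the 99th percentile, and it was near 0 with shared UMIs reassigned (0.0041) and above 14 UMIs (0.0081). The causes were not tested. Leaving out a library changed no direction. Strength was not computed where a library had no AI neuron of a group, which was the case above 56 UMIs for the subtypes, for both comparisons with UMIs of at least 2 reads, and for the subtypes with reassigned UMIs. With thinned reads it rests on 2 L6-Syt6 AI neurons in unsorted mouse 2. No paired analysis was possible because unsorted and FAC-sorted cells came from different mice and the FAC-sorted group is 1 library. Read depth was lowest in unsorted mouse 1, and its part in the AI calls was not tested apart from the thinning. The thinning lowers counts by construction and equalises reads per table cell, not per neuron.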
